A study of Gallus gallus with 48 samples.

Results

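The comparison described here set chicken pituitary cells given corticosterone (CORT, the main glucocorticoid of birds) for 1.5 h after cycloheximide (CHX, which blocks translation) against cells given CHX alone. It held 8 of the 48 samples of the series, chosen by their titles, 4 replicates in each group. All 48 samples came from the anterior pituitary gland of embryos at embryonic day 11, dispersed into single cells and plated in serum-free medium with insulin and transferrin. Both groups were given CHX at 10 micrograms per ml for 1.5 h, and 1 of them was then cultured with CORT at 1e-09 M for 1.5 h. The response without CHX was taken from 4 samples given CORT for 1.5 h and 4 untreated samples. No group was kept for the extra 1.5 h without CORT, so CORT and time in culture, and also time since CHX was added, cannot be told apart in these data. The titles do not say whether CHX was washed out. The labels call the replicates biological without saying that they came from separate dispersions, so a p-value here speaks of the spread among these cultures' RNA, which may be technical.

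Glucocorticoids enter the cell and bind the glucocorticoid receptor, which leaves its chaperones, moves to the nucleus and raises or lowers transcription at sites on DNA. A gene that responds while translation is blocked needs no newly made protein for that response, which is the question a CHX arm is designed to address. CHX itself raises many short-lived mRNAs, among them immediate-early genes, so its effect has to be read beside that of CORT. In the embryonic pituitary of birds, glucocorticoids are known for advancing the appearance of growth hormone cells.

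Each array gave the log2 ratio of 1 sample to a pool of RNA from all 48 samples, and all values below are such ratios or differences between them. A difference of 1 is a 2-fold change on this scale. The direction is not stated in the sources used here and was read as sample over pool, which is likely. On that reading FKBP5, which glucocorticoids induce in many cell types, was higher with CORT in 10 of 10 comparisons of the series, by 0.62 to 1.82. These comparisons are not independent, since those with CHX share the CHX-alone arrays and those without CHX share the untreated arrays. If the direction ran the other way, every direction here would turn, with sizes and p-values as given. The plan for this comparison also listed PDK4, RASD1 and BCL6 as genes used to read the sign. These genes and FKBP5 are therefore no independent evidence of direction. A ratio to the pool does not give the level of a transcript against another, so the identity of the cells could not be read from the hormone genes. In bulk samples, fewer cells of a type and less RNA per cell cannot be told apart.

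The 8 arrays had values for 15165 to 16476 of 19200 probes, with medians of -0.0196 to 0.0484 and SDs of 0.314 to 0.322. The 2 arrays numbered 1 stood apart. Correlations were taken over all 15027 features, tested or not. Between an array numbered 1 and one numbered 2 to 4, 11 of 12 were below 0, the lowest being r = -0.635. The 15 correlations among arrays numbered 2 to 4 were 0.147 to 0.749. The same-numbered arrays of both groups correlated at 0.321 to 0.749. The leading axis of spread within groups carried 51.6% of that spread, and the arrays numbered 1 scored -0.256 and -0.317 on it, against 0.0277 to 0.204 for the other 6. Values without 1 or more of the arrays numbered 1 are given below for some genes, not for every result.

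PDK4 was the only named gene that passed the test. PDK4 encodes a kinase that switches off the pyruvate dehydrogenase complex and so turns cells from glucose to fatty acids as fuel. Its log2 ratios in CHX alone were -0.55, 0.08, -0.80 and -0.36 in replicates 1 to 4, and after CORT they were -0.11, 0.84, 0.46 and 0.57. The array numbered 1 after CORT lay below the highest CHX-alone array, so the groups overlapped, but each array after CORT was above the one of the same number in CHX alone. PDK4 rose by 0.85 (SE 0.16, 95% interval 0.53 to 1.17, n = 4 and 4, adjusted p = 0.0197 with limma), a 1.8-fold change. Its 2 probes gave differences of 0.79 and 0.91. Without the arrays numbered 1 in any group the difference was 0.98 (adjusted p = 0.0293 with limma). Its SDs were 0.37 in CHX alone and 0.40 after CORT, while the SE and interval use a spread shared over all 12 groups of the series. With only the groups compared the difference was again 0.85, but PDK4 was not called. Nor was it called with quantile normalization (adjusted p = 0.0966 with limma). The call rested on 4 arrays a group. It was lost when CHX-alone replicate 1, 3 or 4 was left out (adjusted p = 0.192, 0.424 and 0.0669 with limma) and when replicate 2, 3 or 4 after CORT was left out (adjusted p = 0.319, 0.105 and 0.123 with limma), with differences of 0.71 to 0.86.

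PDK4 was 1 of 5644 named genes tested, or 0.0177%, and 2 of all 11207 features, or 0.0178%, passed. The test was limma's over all 48 arrays, with Benjamini-Hochberg adjustment over all features and a threshold of 0.05. Another 784 named genes on the array had too few values to be tested. The other feature that passed was a probe with no gene name, the corner spot of its print block, chosen for mention after its values were seen. It read -2.61, -1.15, -3.62 and -1.73 in CHX alone and -0.55, 0.59, 0.50 and -0.04 after CORT, a difference of 2.41 (SE 0.42, adjusted p = 0.01 with limma). No gene can be given to it here. At an unadjusted p under 0.05 stood 258 of all features (2.3%), below the share of 0.05 that would pass with no effect. It is therefore no count of responding genes. The main fit did not use the replicate number, and the count depends on its use. With the replicate block 466 stood at that level, still below the share of 0.05. With the block and only the groups compared, an alternative chosen after seeing the data, 825 of 11207 did. That is above the share of 0.05, and none was called. Whether the count lies below or above that share thus depends on the fit. Among named genes at that level in the main fit, 59 (1.05%) were higher and 75 (1.33%) were lower. An unadjusted p under 0.01 was found for 35 (0.62%). Whatever their p, 51.6% of all named genes were higher and 48.4% were lower. Counts in gene groups below are to be read against these shares.

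Genes known from other systems to be induced by glucocorticoids were taken next as a group. The list was chosen with earlier results of these data known, and it holds the genes used to read the sign. Its median is therefore no independent evidence of a response. Of 19 listed genes on the array 17 were tested, and CDKN1A and NFIL3 were not. Of the 17, 11 were higher and 6 were lower, with a median difference of 0.141 against 0.004 over all named genes. PDK4 alone was called. With an unadjusted p under 0.05, 4 were higher and 1 was lower.

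RASD1, a Ras-like GTPase first found as a dexamethasone-induced transcript in pituitary corticotroph cells of mice, had the largest positive difference among all named genes tested. It read -0.38, -0.39, -1.54 and -0.28 in CHX alone and -0.03, -0.03, 1.04 and 0.84 after CORT, so that the groups did not overlap. The difference was 1.1 (SE 0.24, 95% interval 0.61 to 1.59), a 2.14-fold change, with an adjusted p = 0.113 in limma. That SE again uses the spread shared over 12 groups, and the SDs of RASD1 were 0.60 in CHX alone and 0.56 after CORT. CHX-alone replicate 3 lay far below its group, and without it the difference was 0.80.

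FKBP5 encodes a co-chaperone that binds the receptor complex and lowers its affinity for hormone. It read -1.17, -0.48, -1.74 and -0.61 in CHX alone and -0.47, -0.43, -0.14 and -0.41 after CORT. The groups did not overlap, but replicate 2 differed from its partner by only 0.05. The difference was 0.64 (SE 0.20, unadjusted p = 0.00312 in limma's fit across all features), and 0.39 without CHX-alone replicate 3. Its 2 probes disagreed in size, at 1.02 and 0.26.

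BCL6, a transcriptional repressor, read -0.36, -0.05, -0.75 and -0.13 in CHX alone and -0.16, 0.06, 0.55 and 0.13 after CORT. The groups overlapped, while all 4 same-numbered pairs were higher after CORT, by 0.10 to 1.3, as in 8.7% of named genes with all 8 values. The difference was 0.46 (SE 0.17, unadjusted p = 0.00877 in limma's fit), and 0.32 without CHX-alone replicate 3. NFKBIA, the inhibitor that holds NF-kappa-B in the cytoplasm, differed by 0.46 (95% interval -0.10 to 1.02), and by 0.16 without that replicate.

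CHX-alone replicate 3 was the lowest of its 4 arrays for PDK4, RASD1, FKBP5, BCL6 and NFKBIA alike. Of the other 12 listed genes, 11 had 95% intervals that held 0. SGK1, a kinase that raises sodium transport, gave -0.07, DUSP1, a phosphatase of MAP kinases, gave 0.07. GLUL, which makes glutamine and is a glucocorticoid target in chick retina, gave -0.04. SCNN1A, the alpha subunit of the epithelial sodium channel, chosen after its values were seen, was the exception, at -0.28 (95% interval -0.53 to -0.02).

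**Figure D1:**
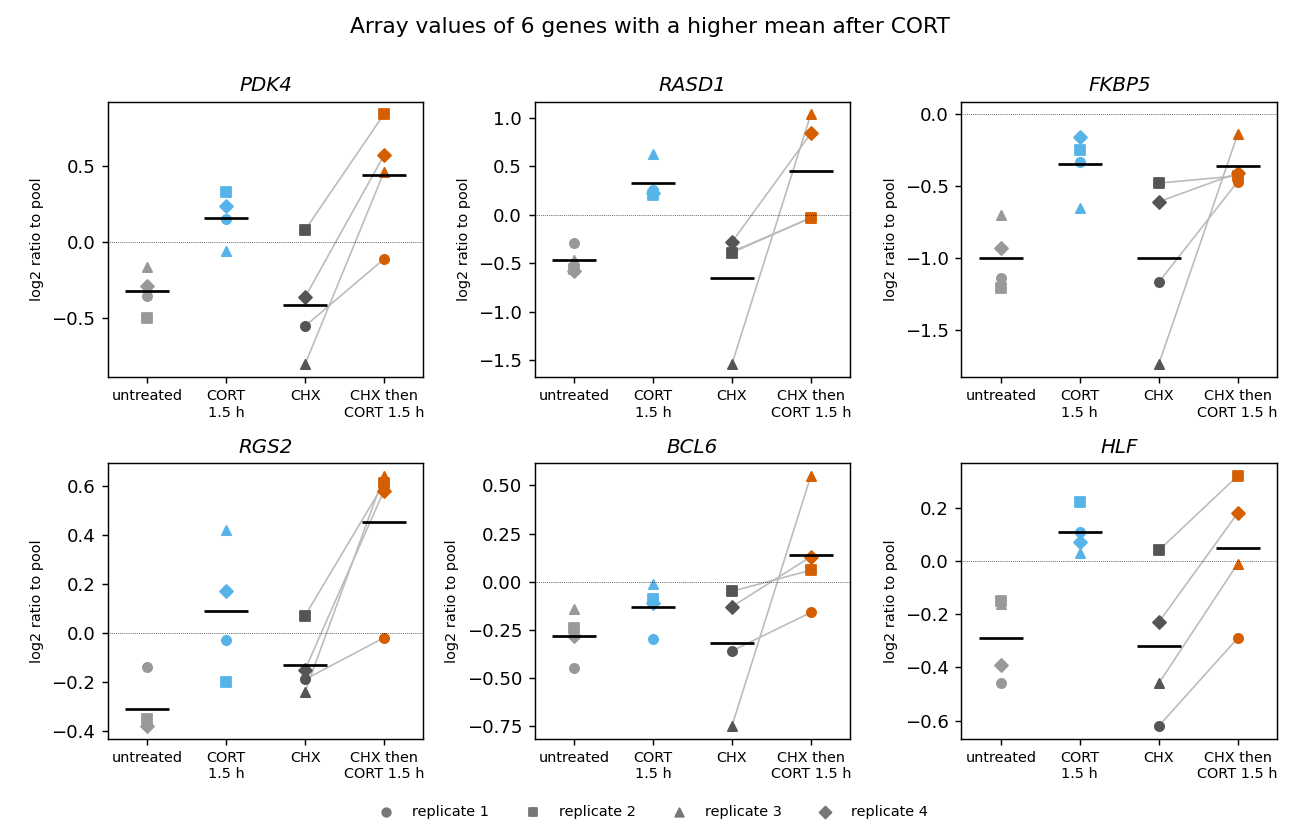
Log2 ratio to the pool (y axis) on each array of 4 groups (x axis) for 6 genes, with marker shape for the replicate number, black bars for group means and grey lines joining same-numbered arrays with CHX. All grey lines slope upward for the 6 genes shown, and PDK4, the 1 called gene, runs from a mean of -0.41 to 0.44.

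The response to 1.5 h of CORT was then set against that without CHX, where the 4 groups share no array. In cells without CHX, PDK4 read -0.35, -0.50, -0.16 and -0.29 untreated and 0.15, 0.33, -0.06 and 0.24 after CORT, groups that did not overlap, with a difference of 0.49. The response after CHX minus that without it was 0.36 (95% interval -0.09 to 0.81). For RASD1 the response without CHX was 0.80, and the responses differed by 0.30 (95% interval -0.40 to 0.99). For FKBP5 it was 0.65, and the responses differed by -0.01 (95% interval -0.59 to 0.57). These intervals hold 0 and also differences as large as much of the response itself, so at 4 arrays a group it was not detectable whether CHX altered the size of these responses.

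Across the table, limma's test of the difference between the responses called 0 of 11207 features (0%), with 348 (3.11%) at an unadjusted p under 0.05, 242 (2.16%) higher and 106 (0.946%) lower after CHX. The response without CHX also called 0 features, with 672 (6%) at that level, 133 (1.19%) higher and 539 (4.81%) lower. The difference between responses subtracts this response. Which arm the excess of higher over lower features in that difference came from was not tested. The median of the glucocorticoid-induced genes was 0.143 without CHX, with 13 of 17 higher, beside 0.141 and 11 of 17 after CHX.

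**Figure D2:**
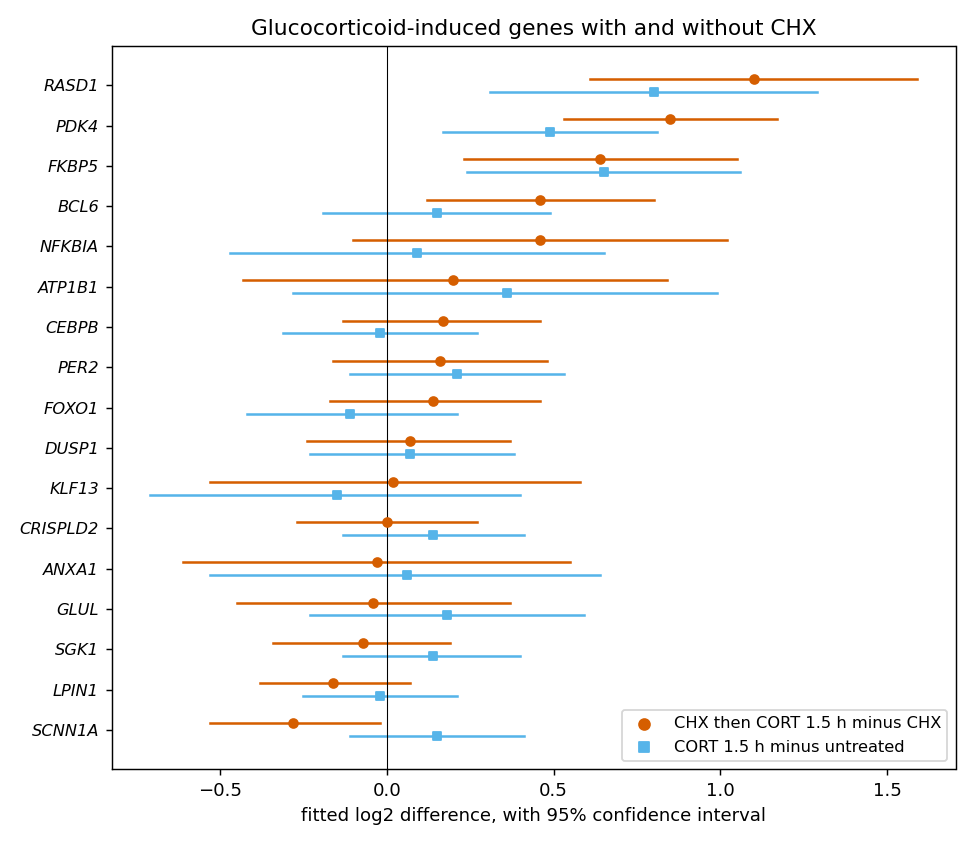
Fitted log2 difference (x axis) with its 95% confidence interval for the 17 glucocorticoid-induced genes tested (y axis), after CHX (circles) and without CHX (squares). RASD1, PDK4 and FKBP5 have intervals above 0 in both arms, while those of SGK1, DUSP1 and GLUL hold 0 in both.

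RASL10A, a Ras-like GTPase chosen after its values were seen, differed by more without CHX. Without CHX it read -1.26, -1.39, -0.75 and -0.92 untreated and 0.14, -0.27, 0.54 and 0.23 after CORT. With CHX it read -0.06, -0.79, -1.99 and -0.63 without CORT and -0.66, -0.80, -0.92 and -0.39 with it, groups that overlapped. The difference was 1.24 without CHX and 0.17 after it, and the responses differed by -1.07 (95% interval -1.88 to -0.25, unadjusted p = 0.0114 and adjusted p = 1 in limma's fit). The 4 CHX-alone arrays spread over nearly 2 log2 units.

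Fuel metabolism beyond PDK4 gave small differences. Of 18 genes tested 12 were higher and 6 were lower, with a median of 0.053, and PDK4 was the single call. The related kinases PDK1 and PDK3 gave 0.04 and -0.05. PDHB, a subunit of the complex that these kinases act on, gave 0.09. PCK1, the rate-limiting enzyme of glucose synthesis and a glucocorticoid target in liver, gave 0.06, and TAT, a tyrosine-degrading enzyme induced by glucocorticoids in rat liver, gave 0.16.

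RGS2, in none of these lists, had the smallest p of the named genes after PDK4, and was chosen after its values were seen. RGS2 speeds the switching off of G proteins of the Gq class, which carry the signals of several hypothalamic hormones. It read -0.19, 0.07, -0.24 and -0.15 in CHX alone and -0.02, 0.61, 0.64 and 0.58 after CORT. The 3 arrays numbered 2 to 4 after CORT lay above all CHX-alone arrays, and the one numbered 1 did not. The difference was 0.58 (SE 0.13, adjusted p = 0.113 in limma), and 0.72 without the arrays numbered 1 in any group, where it passed (adjusted p = 0.0293 with limma). Without CHX the difference was 0.40.

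Groups that did not overlap, higher after CORT, were found for 25 of 5451 named genes with all 8 values (0.459%). Over all features with all 8 values they were found for 39 of 10642 (0.366%). Separate groups also arise with no effect, so neither is a count of responding genes. Of the 25 named genes, 5 had an unadjusted p under 0.01. Besides RASD1 and FKBP5 these were PARK2, ARHGAP24 and GPR25. PARK2 encodes parkin, a ubiquitin ligase that marks damaged mitochondria. It read -0.25, -0.23, -0.27 and -0.02 in CHX alone and 0.01, 0.21, 0.38 and 0.36 after CORT, a difference of 0.43 (SE 0.10, adjusted p = 0.181 in limma). Without CHX its difference was -0.04, and the responses differed by 0.48 (95% interval 0.19 to 0.77, unadjusted p = 0.00195 in limma's fit). This difference between responses was not called. PARK2 was chosen by its difference after CHX, which is part of it. ARHGAP24, which switches off Rac-type GTPases, differed by 0.33, and GPR25, a G protein-coupled receptor, by 0.32.

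The circadian clock list gave 9 positive differences of 9 tested, beside 51.6% higher over all named genes. Its median was 0.082, with 1 unadjusted p under 0.05. Without CHX the list's median was 0.038, with 5 higher and 4 lower. HLF, a leucine zipper activator whose mRNA follows the clock in several tissues of mammals, read -0.62, 0.04, -0.46 and -0.23 in CHX alone and -0.29, 0.32, -0.01 and 0.18 after CORT. Its groups overlapped, and its 4 pairs differed by 0.27 to 0.45. The difference was 0.37 (95% interval 0.05 to 0.68) after CHX and 0.40 without it. PER2, a repressor within the clock loop, differed by 0.16, with 2 of 4 pairs higher. The list's median was 0.161, 0.006, 0.237 and -0.038 in the pairs numbered 1 to 4, so it did not have 1 sign in every pair.

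Lower after CORT, groups did not overlap for 29 of 5451 named genes (0.532%) and 53 of 10642 features (0.498%), again no count of responding genes. Of the 29, 8 had an unadjusted p under 0.01 and none was called. Among these, DUSP7 had the smallest p. DUSP7 is a phosphatase that switches off ERK, the end point of a MAP kinase chain. It read 0.38, 0.16, 0.59 and 0.28 in CHX alone and 0.04, -0.02, 0.04 and -0.10 after CORT, a difference of -0.36 (SE 0.08, adjusted p = 0.14 in limma). Its 2 probes gave -0.17 and -0.55. Without CHX the CORT difference was 0.02, and the responses differed by -0.39 (95% interval -0.62 to -0.15, unadjusted p = 0.00193 in limma's fit). This difference between responses was not called. DUSP7 was chosen by its difference after CHX, which is part of it. CHX alone minus untreated was 0.47. That difference and the one after CORT rest on the same 4 CHX-alone arrays, and DUSP7 after CORT, at a mean of -0.01 ± 0.07 (SD, n = 4), lay nearer to the untreated mean of -0.12 ± 0.08 (SD, n = 4).

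Immediate-early and helix-loop-helix genes, several of which CHX raises in many cell types, gave 6 higher and 8 lower of 14 tested, with a median of -0.05. None was called. At an unadjusted p under 0.05, 0 were higher and 6 were lower, beside 1.05% and 1.33% of all named genes. Without CHX the list's median was -0.096, with 4 higher and 10 lower, and 0 at that level either way. ID2, which blocks DNA binding by helix-loop-helix activators, read 0.48, 0.22, 0.52 and 0.08 in CHX alone and 0.06, 0.07, -0.11 and 0.02 after CORT. These groups did not overlap, by a margin of 0.01. The difference was -0.32 (SE 0.10, unadjusted p = 0.00207 in limma's fit). All 3 probes gave values below 0, the one at -0.15 with values on only 2 arrays after CORT. ID3, of the same family and chosen after its values were seen, differed by -0.47 and was lower in all 4 pairs, as were 8.33% of named genes with all 8 values.

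HEY1, a repressor that acts downstream of Notch, read 0.02, 1.13, 1.15 and 1.14 in CHX alone and -0.25, 0.33, -0.49 and -0.07 after CORT. The array numbered 1 in CHX alone stood apart from the other 3, and the groups overlapped through it. The difference was -0.98 (SE 0.31, unadjusted p = 0.00272 in limma's fit) after CHX and 0.18 without CHX. With CHX-alone replicate 1 left out, the difference after CHX was -1.26. HES4, a related repressor, differed by -0.36.

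KLF11, a zinc-finger factor, differed by -0.85, but CHX-alone replicate 1 read 2.58 against -0.13 to 0.30 on the other 3, and without it the difference was -0.22. BTG2, an antiproliferative gene chosen after its values were seen, differed by -0.39, with probes at -0.97 and 0.28 that disagree in sign. CHX alone minus untreated was 0.55 for HEY1, 0.54 for HES4, 0.86 for ID3, 0.49 for BTG2 and 0.16 for ID2, on the same CHX-alone arrays. For KLF11 it was 0.83, and 0.20 without CHX-alone replicate 1. JUN, also chosen after its values were seen, was high beside untreated cells both in CHX alone and after CORT, at 0.89 and 0.85 against -0.62. EGR1, a serum-responsive factor, differed by 0.08.

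**Figure D3:**
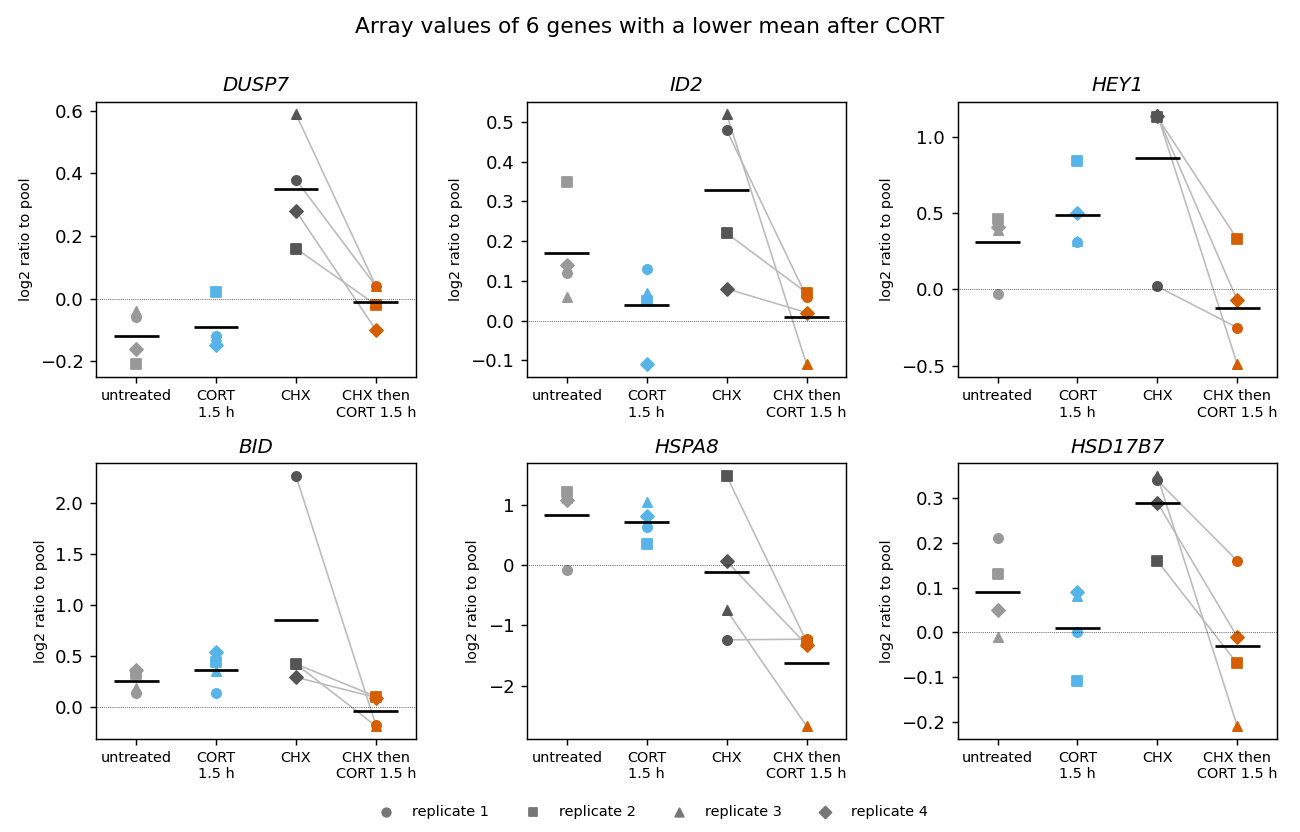
Log2 ratio to the pool (y axis) on each array of 4 groups (x axis) for 6 genes, drawn as for the genes with higher means. DUSP7 and ID2 are lower after CORT in every same-numbered pair with CHX, BID has 1 CHX-alone array at 2.27, and the HSPA8 pair numbered 1 differs by 0.02.

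The feedback list of the MAP kinase pathway gave 2 higher and 6 lower of 8 tested, with none called. DUSP5, another ERK phosphatase, differed by -0.65, with 0 of 4 pairs higher, and by -0.41 without CHX-alone replicate 1. DUSP16, which acts on JNK, differed by 0.48, with 3 of 4 pairs higher. Without replicate 3 after CORT it differed by 0.26, and without replicate 1 by 0.76. The 2 probes of DUSP16 gave 0.44 and 0.33, both below the averaged 0.48, the latter with values on 3 of 4 arrays after CORT. DUSP6 gave -0.12 and SPRED1, a Ras pathway inhibitor, gave -0.03.

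The other genes with groups that did not overlap had varied roles. BID, a pro-apoptotic member of the BCL2 family, differed by -0.89, with CHX-alone replicate 1 at 2.27 against 0.29 to 0.42 on the other 3. Without that replicate the difference was -0.42, and the 2 probes gave -0.15 and -1.64. GCLM, the modifier subunit of the enzyme that starts glutathione synthesis, read 0.10, 0.55, 0.33 and 0.29 in CHX alone and -0.01, -0.88, 0.05 and -0.01 after CORT, a difference of -0.53. Replicate 2 after CORT stood apart, and without it the difference was -0.31. NUCB2, the precursor of nesfatin, differed by -0.36 with probes at -0.71 and -0.02, and CNTNAP1, a contactin-associated membrane protein of nerve fibres, by -0.40. The CNTNAP1 probes with values gave -0.32 and -0.38, both smaller in size, the latter with values on only 2 CHX-alone arrays.

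MGEA5 had the largest negative difference of all named genes tested. It encodes the enzyme that removes O-linked N-acetylglucosamine from proteins. It read -1.49, 1.71, -1.31 and -0.53 in CHX alone and -2.06, -1.67, -3.52 and -1.83 after CORT. The spread in CHX alone was wide, and the difference was -1.87 (95% interval -3.12 to -0.61, unadjusted p = 0.00448 in limma's fit). It was -1.16 without CHX-alone replicate 2. Without CHX its mean was 0.84 untreated and 0.96 after CORT. SYDE2 differed by -0.98, and its probes disagreed, at -0.04 and -1.93.

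HSPA8, the constitutive HSC70 chaperone and part of the machinery that loads the glucocorticoid receptor, had the same shape. It read -1.24, 1.48, -0.75 and 0.06 in CHX alone and -1.23, -1.27, -2.67 and -1.32 after CORT, against 0.83 untreated. The pair numbered 1 differed by 0.02 and the other 3 pairs by -1.38 to -2.75. The difference was -1.51 (SE 0.51, unadjusted p = 0.00493 in limma's fit), and its 3 probes gave -1.04 to -2.14. DNAJA1, a co-chaperone of the HSP40 type, differed by -0.63 and HSPA2 by -0.76. Without CHX-alone replicate 2, the highest of its group for all 3 genes, the differences were -0.98 for HSPA8, -0.30 for DNAJA1 and 0 for HSPA2, whose probes disagreed in sign.

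Of 14 heat shock genes tested, 4 were higher and 10 were lower, with a median of -0.086 and none called. HSP90AA1, the inducible HSP90 that holds the receptor ready for hormone, gave -0.01. Of 8 genes for receptor chaperones, cofactors and the mineralocorticoid receptor, 3 were higher and 5 were lower, and the glucocorticoid receptor gene was not analysed here. They included FKBP4, the co-chaperone that exchanges with FKBP5, at -0.22. In the pairs numbered 1 to 4 the median of the heat shock genes was -0.038, -0.269, -0.143 and 0.037.

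**Figure D4:**
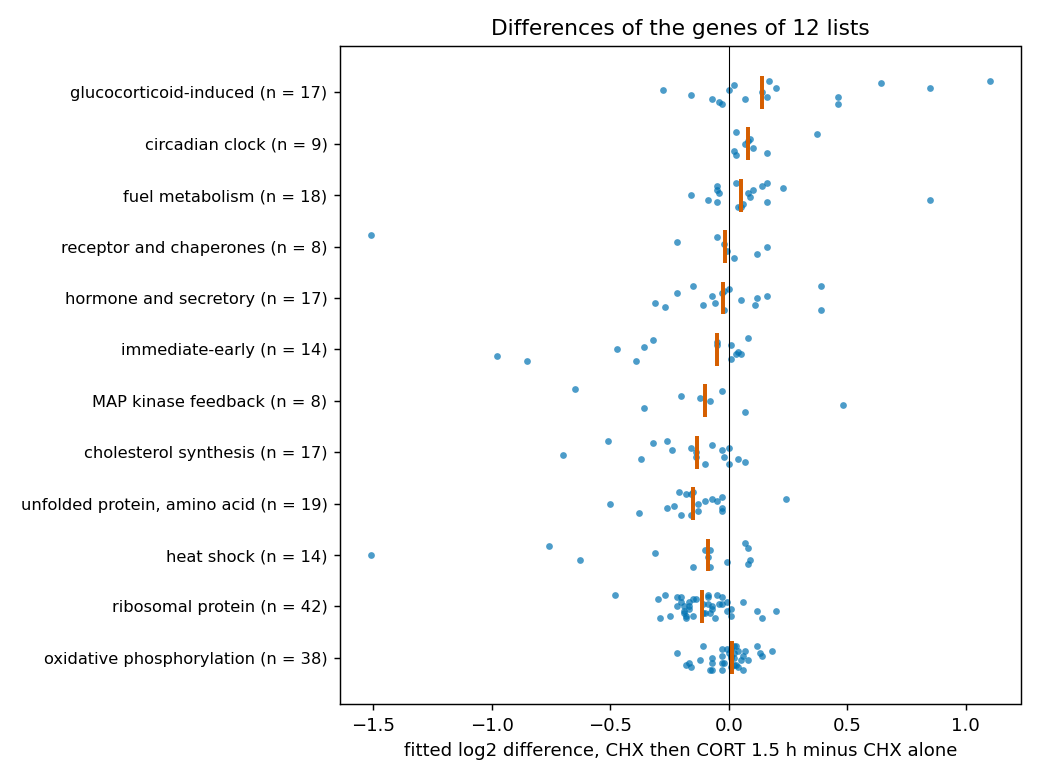
Fitted log2 difference (x axis) of each gene (points) in 12 lists (y axis), with the list median as a vertical bar. Medians range from 0.141 for the glucocorticoid-induced genes to -0.152 for the unfolded protein and amino acid genes, against 0.004 over all named genes.

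Genes of the unfolded protein response and amino acid supply gave 1 higher and 18 lower of 19 tested, beside 48.4% lower over all named genes. Their median was -0.152, with none called and 0 at an unadjusted p under 0.05. Without CHX the median was 0.045, with 11 of 19 higher. HSPA5, the chief chaperone of the endoplasmic reticulum, differed by -0.38 and HSP90B1, its HSP90 partner, by -0.50. PSAT1, of serine synthesis, gave -0.26 and SLC7A5, a leucine transporter, gave -0.16. ATF4, the activator of many of these genes, chosen after its values were seen, was the 1 higher member, at 0.24. CHX-alone replicate 2 was the highest of its group for HSPA5, at 1.36, and for HSP90B1, at 1.21. Without it the differences were -0.02 and -0.18, and the 2 probes of HSPA5 gave -0.56 and 0.20.

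Cholesterol synthesis genes gave 4 higher and 13 lower of 17 tested, beside 48.4% lower over all named genes. Their median was -0.136, with none called and 2 lower at an unadjusted p under 0.05. MSMO1, a sterol oxidase, read -0.12, 1.12, 0.71 and 0.09 in CHX alone and -0.44, 0.19, -0.71 and -0.05 after CORT, a difference of -0.70 (95% interval -1.33 to -0.07). All 4 of its pairs were lower. HSD17B7, which reduces sterol intermediates, differed by -0.32 through 1 of its 3 probes, which gave 0.15, -1.07 and -0.04. HMGCS1, an early enzyme of the pathway, gave -0.37, or -0.13 without CHX-alone replicate 2, and SQLE, a rate-limiting oxidase, gave -0.26, with 95% intervals that held 0. The list's median without CHX was 0.018.

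Ribosomal protein genes gave 6 higher and 36 lower of 42 tested, beside 48.4% lower over all named genes. Their median was -0.112, with none called and 0 at an unadjusted p under 0.05. Without CHX the median was also below 0, at -0.058, with 16 higher and 26 lower. After CHX the median was -0.17, -0.102, -0.158 and 0.051 in the pairs numbered 1 to 4, so the pair numbered 4 ran the other way. In the unfolded protein list it was -0.053, -0.265, -0.231 and 0.069 in the same order, and in the cholesterol list 0.05, -0.252, -0.193 and -0.001. For these 3 lists the medians of the 4 pairs were not all of 1 sign. The part that the CHX-alone arrays, shared by every gene, have in these shifts was not tested. Genes of oxidative phosphorylation had a median of 0.012 and those of the proteasome one of -0.023.

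**Figure D5:**
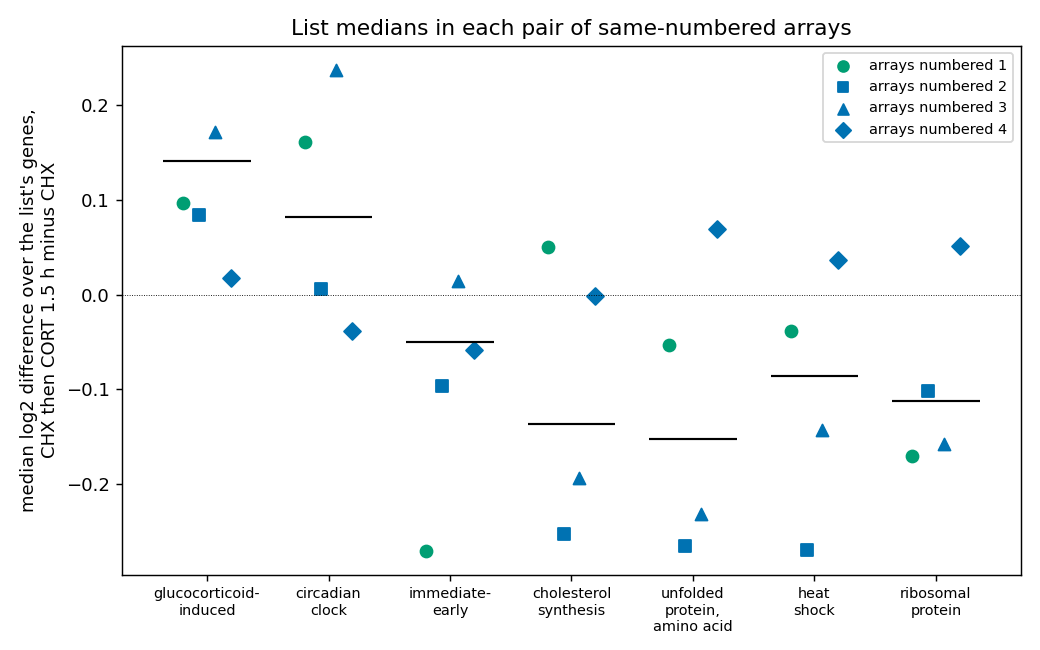
Median log2 difference over the genes of 7 lists (x axis) in each pair of same-numbered arrays (y axis, markers), with the fitted list median as a bar. The glucocorticoid-induced genes, which include those used to read the sign, are above 0 in all 4 pairs, from 0.018 to 0.172. The other 6 lists drawn have pairs on both sides of 0. Among lists not drawn, the fuel metabolism, NF-kappa-B and cytokine, and red cell genes were also above 0 in all 4 pairs. Those of the red cell genes were 0.065 to 0.23, so this is not particular to the glucocorticoid-induced genes. All lists were chosen with earlier results of these data known.

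The hormone genes of the pituitary did not pass the test. PRL, prolactin, differed by 0.39 (95% interval -0.35 to 1.13), with 3 values after CORT. GH, growth hormone, read 0.27, -0.28, -0.60 and -0.20 in CHX alone and 0.22, -0.18, -0.01 and -0.38 after CORT, a difference of 0.11 (95% interval -0.32 to 0.55). POMC, the precursor of corticotropin, differed by 0.05 and TSHB, the beta subunit of thyrotropin, by -0.11. The intervals of PRL and GH leave room for changes in either direction.

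Of 17 hormone and secretory genes tested 7 were higher and 10 were lower, with a median of -0.023. SCG5, a granule chaperone of the prohormone convertase, differed by 0.39 (unadjusted p = 0.0118 in limma's fit), mostly through replicate 3, whose pair differed by 1.24. Without replicate 3 after CORT the SCG5 difference was 0.18. Of 6 pituitary transcription factors 2 were higher and 4 were lower, with POU1F1, the activator of growth hormone, prolactin and thyrotropin genes, at -0.09. Markers of other cells had medians of -0.003 for 17 fibroblast genes, -0.019 for 12 neural genes, 0.021 for 10 endothelial genes, 0.001 for 5 immune genes, -0.003 for 12 cartilage and muscle genes and 0.127 for 5 red cell genes. None of these markers was called, and 0 had an unadjusted p under 0.05.

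Longer CORT after CHX was measured against the same 4 CHX-alone arrays, so these comparisons are not independent of the one at 1.5 h. No CHX-alone group was kept for these longer times. CORT, time in culture and time since CHX therefore cannot be told apart here either, and the values are given side by side. At 3, 6, 12 and 24 h the differences of PDK4 were 0.52, 0.99, 0.81 and 0.43. Those of FKBP5 were 1.05, 1.82, 1.42 and 1.26. Those of RASD1 were 0.81, 0.47, 0.40 and 0.17, below its 1.1 at 1.5 h at every later time. RGS2 gave 0.27, 0.21, -0.11 and -0.19 after 0.58 at 1.5 h. RASD1 had the largest positive difference at 1.5 h, and RGS2 was chosen after its values there were seen. Smaller values at other times can follow from such a choice alone, and a fall over time was not tested. BCL6 gave 0.52, 0.84, 0.66 and 0.66, and HLF gave 0.35, 0.67, 0.72 and 0.53. Among lower genes DUSP7 gave -0.29, -0.40, -0.27 and -0.40, and HSPA8 gave -1.29, -1.73, -1.37 and -1.13.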

How the data were processed

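The deposited values were log2 ratios per probe and array, made by the authors on a 2-colour array with Cy3 samples against a Cy5 pool, per the labels. The base of the logarithm was not stated and was taken as 2. Background correction, normalization and software are not given in the sources used here, and array medians and SDs show that values were centred and scaled before deposit, which removes differences in total RNA. The labels name both 16 and 48 slides for the pool, which was not resolved. No spot intensities were used, so the number of arrays limits the precision.

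Of 19200 probes, 10601 had 1 gene symbol in the platform annotation and 8599 had none. RefSeq's current symbol replaced 10455 of these symbols and the older symbol was kept for 146. Probes were averaged per symbol. A feature needed values on 3 of 4 arrays in each of 12 groups. A group-means model over 48 arrays was fitted with limma 3.58.1 in R 4.3.3 (lmFit, eBayes, two-sided), with p-values adjusted by Benjamini-Hochberg over 11207 features. The code was tested on simulated data.

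Replicate numbers come from the titles. Same-numbered arrays of both groups deviated together from their group means for numbers 1, 2 and 4 (r = 0.855, 0.749 and 0.59). For number 3 the r was 0.113, below the 0.257 between CHX-alone replicate 4 and replicate 3 after CORT. Pairing by number is therefore not shown for every replicate. The main fit did not use the number, and a fit with the number as a block was an alternative. Other alternatives changed the normalization, filter, probe summary, samples and prior, and left out each array.

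The rule for naming genes took those called and those with groups that did not overlap and an unadjusted p under 0.01 (the 12 largest each way). It also took the 4 members of each list with the smallest p, and fixed hormone and glucocorticoid genes. This gave 115 genes, and not all of the list members among them are given in the text. Exceptions are marked as chosen after their values were seen, as are other list members given for their role: SGK1, DUSP1, GLUL, PDHB, PDK1, PDK3, PCK1, DUSP6, SPRED1, HSP90AA1 and EGR1. Members and the 26 lists were chosen with earlier results of these data known. Promoter sequence was not analysed here.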

Additional observations from a re-analysis of the deposited data

Results flagged for a closer look

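In 12 of 97 groups of 4 arrays checked over the named genes, 1 array lay farther from the others than Dixon's 95% limit allows. Chance flags about 1 group in 20, and genes on the same arrays are not independent. In CHX alone, replicate 1 read 2.27 for BID (others 0.29 to 0.42), 2.58 for KLF11 (others -0.13 to 0.30) and 0.02 for HEY1 (others 1.13 to 1.15). Replicate 3 read -1.54 for RASD1 (others -0.39 to -0.28) and -1.13 for NFKBIA (others -0.03 to 0.16). Replicate 4 read -0.02 for PARK2 (others -0.27 to -0.23).

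After CORT, replicate 1 read -0.02 for RGS2 (others 0.58 to 0.64) and -0.14 for JUN (others 1.09 to 1.29). Replicate 2 read -0.88 for GCLM (others -0.01 to 0.05) and 0.73 for BTG2 (others -0.17 to -0.04). Replicate 3 read -0.76 for CNTNAP1 (others -0.24 to -0.23) and -2.67 for HSPA8 (others -1.32 to -1.23).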

How the results depend on the processing

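The count of 2 called features after CHX was 2 with the replicate block, with a value on all arrays, with the filter at 2 values, with exact zeros set to missing, with the median over probes, with a robust and trended prior and without the arrays numbered 1 in every group, where RGS2 was called in place of the unnamed probe. It was 0 with only the groups compared (130 at an unadjusted p under 0.05, beside 258 in the main result), 1 with quantile normalization (the unnamed probe, with PDK4 lost at an adjusted p = 0.0966 in limma), 6 with array weights and 7 with the leading-axis score as a covariate. Leaving out 1 array gave 0 to 8 in limma's test, with 195 to 383 at that level. The block changed no other call. Alternatives chosen after seeing the data gave 0 with only the groups compared and a replicate block (825 at that level) and 0 with the sign turned on the arrays numbered 1 (77 at that level). PDK4 was called in 11 of 21 alternatives and the unnamed probe in 13, with PDK4 differences of 0.63 to 1.03. The count for the difference between responses was 0 in every alternative run, the leave-outs of the CORT and untreated arrays included, with 90 to 807 at that level.

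Of 1027 values of the named genes across alternatives 15 reversed. Leaving out 1 array gave -0.19 to 0.28 for JUN, -0.02 to 0.27 for GH, -0.06 to 0.15 for POMC and -0.2 to 0.44 for RASL10A, whose sign turned. JUN also gave 0.1 with array weights and 0.17 without the arrays numbered 1, where TSHB gave 0. Turning the sign of the arrays numbered 1 gave 0.08 for DUSP5, 0.33 for BID, 0.48 for KLF11, 0.31 for JUN, -0.08 for PER2 and 0.12 for TSHB. List medians kept their sign over 21 settings for the glucocorticoid-induced (0.069 to 0.161), clock (0.016 to 0.139), fuel (0.024 to 0.1), cholesterol (-0.215 to -0.06), unfolded protein (-0.18 to -0.073) and ribosomal (-0.241 to -0.032) genes. They did not for the immediate-early (-0.146 to 0.015), heat shock (-0.174 to 0.009) and MAP kinase feedback (-0.188 to 0.099) genes. The cause of these changes was not tested. With 4 arrays a group and no intensities, changes of small size were not detectable.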
